A study of Homo sapiens with 6 samples.

Results

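The genes described here are 10 members of the planar cell polarity system: the multipass cadherin genes CELSR1, CELSR2 and CELSR3, the membrane protein genes VANGL1 and VANGL2, the receptor genes FZD3 and FZD6, the cytoplasmic partner genes PRICKLE1 and PRICKLE2, and the scaffold gene SCRIB. They were chosen by name, because CELSR2 was lower with both siRNAs, and each has 1 row among the 60409 rows of the deposited tables. All 10 passed the filter on low counts and were among the 18583 genes tested. The cells were ACHN, an established human kidney cancer line, taken 48 h after transfection, with 2 libraries in each of 3 groups. Group NC received a negative control siRNA. The other groups, siMEX3A_1 and siMEX3A_2, are named for separate siRNAs directed at MEX3A, the gene of an RNA-binding protein. No other treatment or allele is named in the labels, and all groups come from this 1 line.

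Planar cell polarity is the alignment of cells within the plane of a sheet, and in the kidney it is known for orienting cell division and cell intercalation as tubules lengthen. CELSR cadherins bind each other across cell borders. On one side they hold a Frizzled receptor with Dishevelled, and on the other a VANGL protein with a PRICKLE protein, and these opposed complexes give the sheet its direction. SCRIB, a basolateral scaffold with PDZ domains, binds VANGL proteins. The series title concerns entry into S phase and does not name these genes.

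Library totals lay between 18825750 and 19158723 counts. MEX3A itself had 56 to 109 counts in a library and normalized counts of 93.3 and 106 in NC, 56.6 and 65.3 with siMEX3A_1, and 73.0 and 76.1 with siMEX3A_2. It fell with siMEX3A_1 (log2 fold change -0.71, SE 0.17, edgeR adjusted p = 0.00655) and did not pass with siMEX3A_2 (-0.42, SE 0.17, adjusted p = 0.0644). With DESeq2 the first of these calls ended (adjusted p = 0.0948). In the authors' deposited comparison neither siRNA passed for MEX3A (adjusted p = 0.137 with siMEX3A_1 and 0.392 with siMEX3A_2). With a minimum mean of 50 counts siMEX3A_2 passed in edgeR (adjusted p = 0.0489), in 1 of 14 alternatives only. Of 10 renal markers, 9 passed the filter and CA9 had a mean under 10 counts. Their summed normalized count was 88684 to 89049 in NC, 146874 to 152796 with siMEX3A_1 and 91910 to 93394 with siMEX3A_2, and its part in the results below was not tested. Among markers of other cell types, PTPRC and CD3E of leukocytes, DCN and LUM of fibroblasts, STMN2 and GAP43 of neurons, and CDH5, VWF and KDR of endothelium each had a mean under 10 counts. CD3E and STMN2 were at 0 in all libraries. The summed normalized count of 4 leukocyte markers (PTPRC, CD3E, CD68 and ITGAM) was 345 to 374 in NC, 604 to 621 with siMEX3A_1 and 621 to 669 with siMEX3A_2. Most of it was CD68, a lysosomal protein gene of macrophages, which rose with both siRNAs (0.96 and 0.94, edgeR adjusted p = 5.95e-06 and 9.72e-06). The integrin gene ITGAM fell with siMEX3A_1 (-1.75, adjusted p = 0.00318) and was at 0.09 with siMEX3A_2 (adjusted p = 0.832). The summed normalized count of the fibroblast list was 1392 to 1495 in NC, 851 to 928 with siMEX3A_1 and 1224 to 1389 with siMEX3A_2, that of the neuron list 744 to 785, 1008 to 1067 and 1283 to 1338 in the same order, and that of the endothelial list at most 7.80. Mean normalized counts in NC were 1200 for COL1A1, 206 for PDGFRB and 30.5 for COL1A2 of fibroblasts. Those of neurons were 636 for SYT1, 67.4 for SNAP25 and 57.0 for RBFOX3. SYT1 rose with both siRNAs (0.60 and 0.94, edgeR adjusted p = 3.60e-05 and 2.77e-06), while SNAP25 fell (-2.14 and -0.73, adjusted p = 0.000135 and 0.0297). PECAM1 of the endothelial list was not found as a single row. The part of these lists in the results was not tested. In such bulk libraries a smaller number of expressing cells and less RNA per cell cannot be told apart.

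RefSeq promoter windows (build GRCh38.p14) were found for 6 of the 10 members. The bases before the transcription start are shown for CELSR2, CELSR3 and VANGL2, among the members lower with both siRNAs, and for PRICKLE2, among those higher with both. Each is written 5′ to 3′ on the gene's own strand, and bases inside an annotated exon are left off. Capitals mark GC boxes (GGGCGG on either strand) and, in PRICKLE2, the letters TTTGAA.
CELSR2: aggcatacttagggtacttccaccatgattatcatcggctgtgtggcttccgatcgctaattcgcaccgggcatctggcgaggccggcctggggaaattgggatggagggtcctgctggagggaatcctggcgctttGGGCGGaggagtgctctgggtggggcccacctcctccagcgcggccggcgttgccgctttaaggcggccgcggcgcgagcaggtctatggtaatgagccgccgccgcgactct
CELSR3: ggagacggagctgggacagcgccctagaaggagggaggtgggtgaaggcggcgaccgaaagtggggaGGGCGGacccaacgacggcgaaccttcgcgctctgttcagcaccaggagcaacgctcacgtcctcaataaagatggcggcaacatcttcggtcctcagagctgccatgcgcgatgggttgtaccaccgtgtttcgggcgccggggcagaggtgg
VANGL2: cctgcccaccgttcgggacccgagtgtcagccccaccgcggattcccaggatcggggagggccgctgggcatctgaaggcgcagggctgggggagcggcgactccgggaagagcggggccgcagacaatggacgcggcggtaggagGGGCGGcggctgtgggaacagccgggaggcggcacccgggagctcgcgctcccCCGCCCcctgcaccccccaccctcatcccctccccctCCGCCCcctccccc
PRICKLE2: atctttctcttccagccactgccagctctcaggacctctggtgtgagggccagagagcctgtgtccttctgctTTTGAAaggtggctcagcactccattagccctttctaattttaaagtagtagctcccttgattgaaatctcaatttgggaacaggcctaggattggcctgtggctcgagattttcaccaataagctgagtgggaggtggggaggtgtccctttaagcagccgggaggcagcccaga
These lie at chr1:109249289-109249538 on the plus strand (CELSR2), chr3:48662916-48663136 on the minus strand (CELSR3), chr1:160400314-160400563 on the plus strand (VANGL2) and chr3:64268175-64268423 on the minus strand (PRICKLE2). The stretch shown for CELSR2 held 1 GC box, that of CELSR3 held 1, that of VANGL2 held 3 and that of PRICKLE2 held 0. Of all 35116 windows, 42.6% held this motif within 250 bases and 39.1% within the 221 bases shown for CELSR3. PRICKLE1, also higher with both, has a window with 1 GC box and a GC content of 77.2%, not shown because 165 of its 250 bases are exonic. Both windows of VANGL1 held 3 GC boxes, and another PRICKLE2 window, at chr3:64225467-64225716, held none of the motifs searched. The GC content was 64.4% in CELSR2, 64.3% in CELSR3, 76.4% in VANGL2 and 51.8% in PRICKLE2, against a median of 58% over all windows. TTTGAA, the core of the cell cycle homology region, occurred in the PRICKLE2 window and in 13.3% of all windows. Neither the E-box CACCTG nor the E2F forms TTTGGCGC, TTTCGCGC, TTTCCCGC and TTTGCCGC occurred on either strand of the stretches shown. Of all windows, 17.5% held the E-box and 2.79% an E2F form. The VANGL1 window at chr1:115641720-115641969 held the E-box on the minus strand, 122 bases before the start site. A match or its absence describes only the letters in the window.

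In control cells the members differed widely in level. Per kb of annotated exon, FZD6 was highest in NC (315 ± 13.9 normalized counts per kb, SD, n = 2 libraries), followed by CELSR1 (177 ± 14.9), SCRIB (167 ± 5.61), VANGL2 (150 ± 8.82) and PRICKLE1 (140 ± 7.77). VANGL1 (108 ± 4.45), CELSR2 (68.0 ± 3.51), PRICKLE2 (52.7 ± 3.50) and CELSR3 (45.1 ± 4.49) came next, and FZD3 was lowest (5.18 ± 0.419). CELSR1 and SCRIB overlapped between libraries, as did VANGL2 and PRICKLE1, and the other neighbours in this order did not. The order changed with each siRNA. PRICKLE1 led with siMEX3A_1 at 500.2 ± 32.9 per kb, FZD6 still led with siMEX3A_2 at 301 ± 2.15, and CELSR2 was next to last in both, with 13.1 and 15.7 per kb in the siMEX3A_1 libraries and 8.84 and 9.15 in the siMEX3A_2 libraries.

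With siMEX3A_1, all 10 members passed the test against NC, 4 higher and 6 lower, where edgeR called 52.9% of all genes tested (27% higher and 25.9% lower). With siMEX3A_2, 3 were higher and 5 lower, where 50.9% of all genes were called (25.2% higher and 25.7% lower). The median log2 fold change over the members was -0.60 and -0.47, beside -0.01 and -0.0023 over all genes tested. Since the fall of CELSR2 in these contrasts chose the set, nothing is read from these counts. Both contrasts share the NC libraries, so their values are given side by side.

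**Figure D1:**
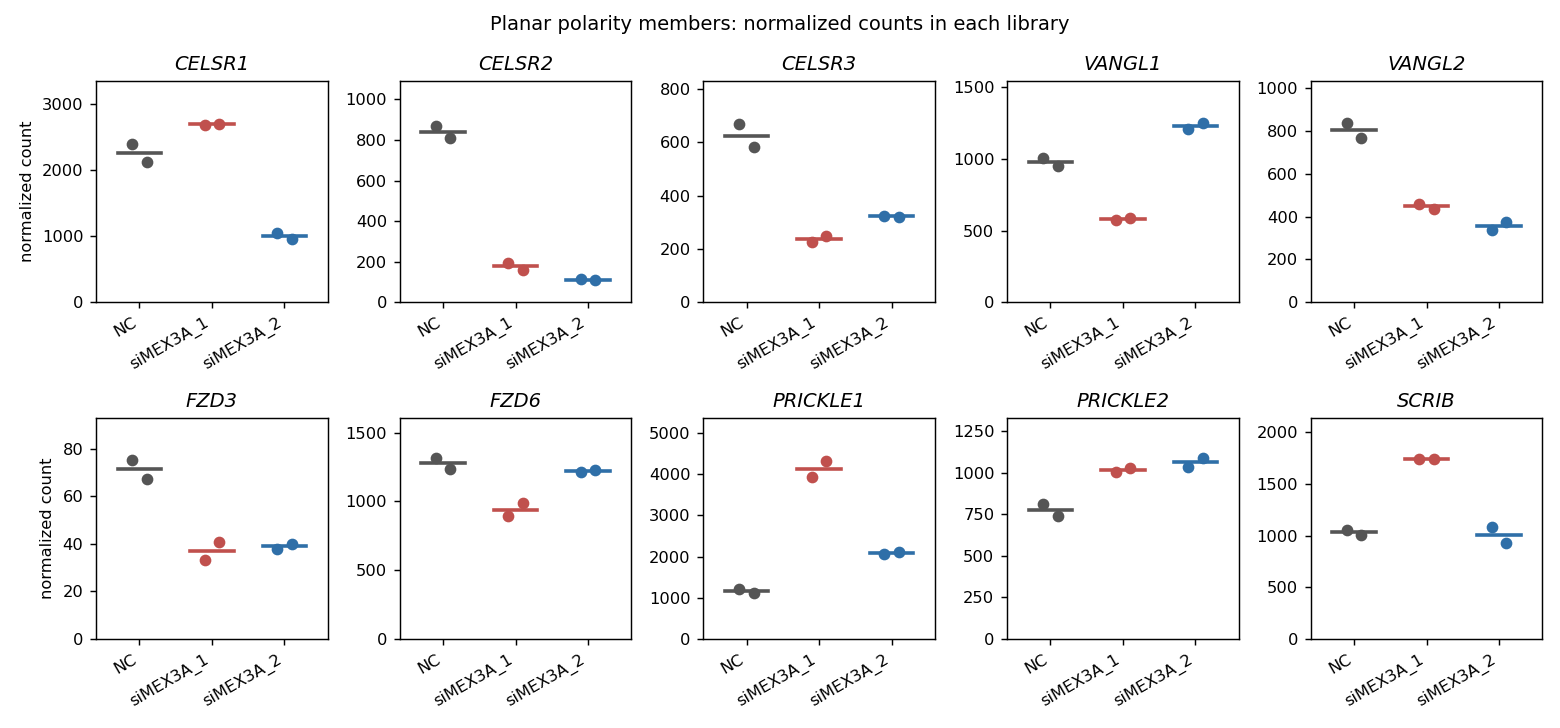
Normalized counts of the 10 members (vertical axes, each starting at 0) in NC, siMEX3A_1 and siMEX3A_2. Points are libraries and lines are means of 2 libraries. CELSR2 lies between 109 and 194 in the 4 siRNA libraries and at 809 and 871 in NC, while PRICKLE1 is highest with siMEX3A_1.

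CELSR2 is the member that chose the set, so its values against NC are a description. Before scaling, the NC libraries held 877 and 830 CELSR2 counts, those of siMEX3A_1 held 192 and 158, and those of siMEX3A_2 held 113 and 109. Every siRNA library was below both NC libraries. Normalized, the mean went from 840 ± 43.4 to 178 ± 23.3 and 111 ± 2.74 (SD, n = 2 libraries each), 4.72-fold and 7.55-fold lower. The log2 fold changes were -2.24 (SE 0.10, 95% interval -2.46 to -2.02) and -2.92 (SE 0.10, 95% interval -3.15 to -2.68). The choice did not use the difference between the siRNAs. CELSR2 was higher with siMEX3A_1 than with siMEX3A_2 by 0.68 on the log2 scale (SE 0.12, edgeR adjusted p = 0.00127).

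CELSR1, the epithelial member of the family that is needed for neural tube closure in mice, had normalized counts of 2401 and 2131 in NC, 2684 and 2708 with siMEX3A_1, and 1043 and 964 with siMEX3A_2. The groups did not overlap. It rose slightly with siMEX3A_1 (log2 fold change 0.25, SE 0.07, edgeR adjusted p = 0.0147) and fell with siMEX3A_2 (-1.17, SE 0.08, adjusted p = 1.94e-06). The rise rested on NC replicate 2: without it the value was 0.17 (adjusted p = 0.128). Tested directly, the siRNAs differed by 1.43 (SE 0.08, adjusted p = 3.64e-07), a 2.69-fold higher level with siMEX3A_1.

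CELSR3, known for its part in axon guidance, had normalized counts of 669 and 581 in NC, 224 and 249 with siMEX3A_1, and 323 and 320 with siMEX3A_2. All 4 siRNA libraries were below both NC libraries. It fell by 1.40 on the log2 scale with siMEX3A_1 (SE 0.10, edgeR adjusted p = 1.66e-06) and by 0.96 with siMEX3A_2 (SE 0.09, adjusted p = 2.24e-05). Between the siRNAs it was lower with siMEX3A_1 (-0.44, SE 0.10, adjusted p = 0.005), the opposite order to CELSR2.

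Ratios of raw counts within a library do not depend on scaling. CELSR1 had 2.76 and 2.63 counts for each CELSR2 count in NC, 13.8 and 16.8 with siMEX3A_1, and 9.23 and 8.84 with siMEX3A_2. For each CELSR3 count, it had 3.59 and 3.66 in NC, 11.9 and 10.9 with siMEX3A_1 and 3.23 and 3.01 with siMEX3A_2. Per kb, CELSR1 made up 61.2% and 60.8% of the family in NC, 86.8% and 87.2% with siMEX3A_1, and 71.5% and 70.2% with siMEX3A_2. The summed level of the 3 cadherins was 274 to 306 per kb in NC, 241 to 242 with siMEX3A_1 and 107 to 114 with siMEX3A_2. The fall of CELSR2 chose the set. Against NC, the ratio to CELSR2, the family shares and the sum follow in part from that choice and are descriptions. The siMEX3A_1 libraries had a high CELSR1 level with little CELSR2 and CELSR3, and the siMEX3A_2 libraries were low in all 3.

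VANGL2, the membrane core protein whose mutation in mice disrupts neural tube closure, had normalized counts of 836 and 769 in NC, 460 and 438 with siMEX3A_1, and 336 and 376 with siMEX3A_2. It fell with both siRNAs, by 0.84 (SE 0.08, edgeR adjusted p = 1.46e-05) and 1.17 (SE 0.08, adjusted p = 2.97e-06) on the log2 scale. The siRNAs differed by 0.34 (SE 0.09, adjusted p = 0.0085), a call that ended without siMEX3A_2 replicate 1 (0.26, adjusted p = 0.0864).

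VANGL1, its close relative, moved in opposite directions. Its normalized counts were 1011 and 954 in NC, 576 and 589 with siMEX3A_1, and 1213 and 1254 with siMEX3A_2. The 3 groups did not overlap. It fell by 0.75 with siMEX3A_1 (SE 0.07, edgeR adjusted p = 8.33e-06) and rose by 0.33 with siMEX3A_2 (SE 0.06, adjusted p = 0.00159), and the direct difference was -1.08 (SE 0.06, adjusted p = 8.16e-07). VANGL1 had 1.21 and 1.24 counts for each VANGL2 count in NC, 1.25 and 1.34 with siMEX3A_1, and 3.61 and 3.34 with siMEX3A_2. VANGL1 outweighed VANGL2 most in the siMEX3A_2 libraries.

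**Figure D2:**
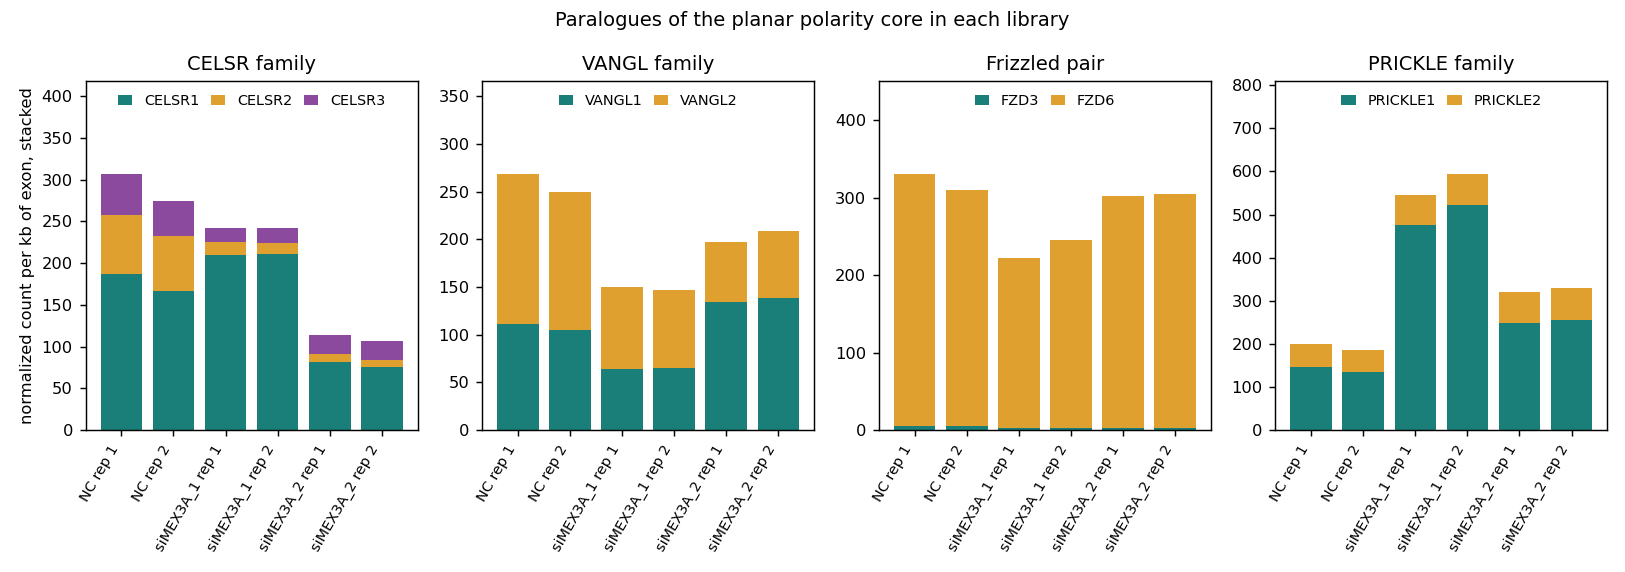
Normalized counts per kb of annotated exon (vertical axes, starting at 0) for the related members in each of 6 libraries, stacked by gene. CELSR1 holds 86.8% and 87.2% of the CELSR sum with siMEX3A_1, and the VANGL1 part of the VANGL bars is largest with siMEX3A_2.

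FZD6 and FZD3 are the Frizzled receptors most tied to planar polarity, in hair patterning and in axon guidance. FZD6 had normalized counts of 1320 and 1240 in NC, 895 and 987 with siMEX3A_1, and 1217 and 1230 with siMEX3A_2. It fell by 0.44 with siMEX3A_1 (SE 0.07, edgeR adjusted p = 0.000514). With siMEX3A_2 it did not pass (-0.06, SE 0.07, 95% interval -0.22 to 0.09, adjusted p = 0.482). The siRNAs differed by -0.38 (SE 0.07, adjusted p = 0.00147).

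FZD3 was the least abundant member, with normalized counts of 75.5 and 67.3 in NC, 33.4 and 40.8 with siMEX3A_1, and 38.0 and 40.1 with siMEX3A_2. It fell by 0.94 (SE 0.22, edgeR adjusted p = 0.00459) and 0.87 (SE 0.21, adjusted p = 0.00738) on the log2 scale. With DESeq2 the adjusted p was 0.0717 and 0.0919, in the authors' deposited table it was 0.0971 and 0.115, and without NC replicate 1 that of siMEX3A_2 was 0.0527, so both calls ended with another tool and the second also with fewer libraries. The siRNAs did not differ detectably (-0.07, 95% interval -0.60 to 0.45, adjusted p = 0.821).

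PRICKLE1, a LIM domain protein that joins VANGL at the membrane, had the largest rise. Its normalized counts were 1201 and 1111 in NC, 3933 and 4317 with siMEX3A_1, and 2056 and 2114 with siMEX3A_2. The 3 groups did not overlap. The log2 fold change was 1.84 with siMEX3A_1 (SE 0.07, edgeR adjusted p = 4.73e-08) and 0.85 with siMEX3A_2 (SE 0.07, adjusted p = 8.25e-06). Directly, it was higher with siMEX3A_1 by 0.98 (SE 0.07, adjusted p = 1.91e-06).

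PRICKLE2, its relative, had normalized counts of 813 and 740 in NC, 1006 and 1030 with siMEX3A_1, and 1035 and 1090 with siMEX3A_2. It rose by 0.39 (SE 0.07, edgeR adjusted p = 0.00102) and 0.45 (SE 0.07, adjusted p = 0.000447), and the siRNAs did not differ detectably (-0.06, 95% interval -0.22 to 0.09, adjusted p = 0.489). For each PRICKLE2 count, PRICKLE1 had a mean of 1.49 counts over the NC libraries, 4.05 with siMEX3A_1 and 1.96 with siMEX3A_2. Both genes share exon bases with genes on the opposite strand in GENCODE 29, and whether the counting used strand is not stated in the labels. PPHLN1 shares 5.31% of the PRICKLE1 exon bases and AC079601.1 shares 22.5%. PPHLN1 did not pass with siMEX3A_1 (-0.09, edgeR adjusted p = 0.245) and rose with siMEX3A_2 (0.21, adjusted p = 0.0135), and its part in the PRICKLE1 values was not tested. AC079601.1 had normalized counts of at most 36.7. The antisense gene PRICKLE2-AS1, with 2 rows, had between 4.88 and 19.8 counts in a library.

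SCRIB had normalized counts of 1059 and 1010 in NC, 1743 and 1741 with siMEX3A_1, and 1079 and 924 with siMEX3A_2. Only the siMEX3A_1 libraries stood apart from NC, while NC and siMEX3A_2 overlapped. It rose by 0.75 with siMEX3A_1 (SE 0.08, edgeR adjusted p = 3.11e-05) and did not pass with siMEX3A_2 (-0.05, SE 0.08, 95% interval -0.23 to 0.14, adjusted p = 0.666). The siRNAs differed by 0.80 (SE 0.08, adjusted p = 2.25e-05).

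In the direct comparison of siMEX3A_1 with siMEX3A_2, 8 of 10 members differed, 5 higher and 3 lower with siMEX3A_1, where 51.6% of all genes tested were called (26% higher and 25.5% lower). CELSR1, CELSR2, VANGL2, PRICKLE1 and SCRIB were higher, and CELSR3, VANGL1 and FZD6 were lower. Against NC, CELSR2, CELSR3, VANGL2 and FZD3 were lower with both siRNAs and PRICKLE1 and PRICKLE2 higher with both. These 6 stand beside 27.7% of all genes called in the same direction with both. CELSR2 is among them by the choice of the set, and both FZD3 calls ended with DESeq2, so nothing is read from this count. CELSR1 and VANGL1 were called in opposite directions, as were 7.67% of all genes.

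**Figure D3:**
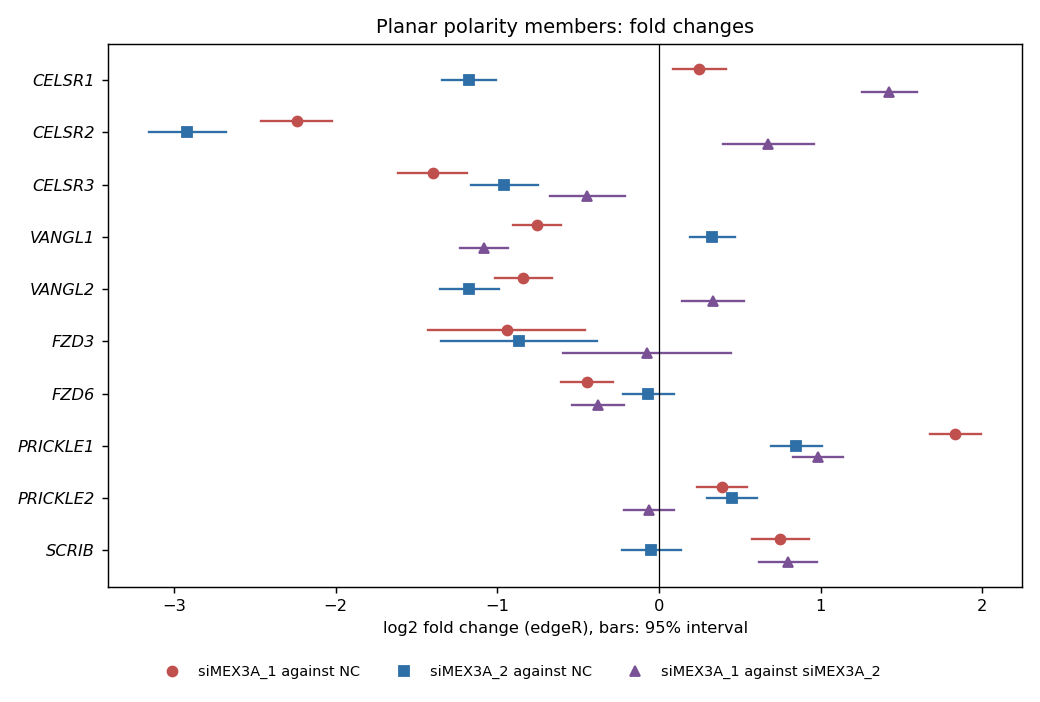
Log2 fold changes of the 10 members from edgeR (horizontal axis) for siMEX3A_1 against NC (circles), siMEX3A_2 against NC (squares) and siMEX3A_1 against siMEX3A_2 (triangles), with 95% intervals. CELSR2 lies farthest left at -2.24 and -2.92, and CELSR1 and VANGL1 have circles and squares on opposite sides of 0.

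Over the 6 libraries, the genes whose log2 CPM values (counts relative to library size), centred, lay closest to those of CELSR2 were B4GAT1, a glucuronyltransferase of dystroglycan glycosylation, SLC34A2, a sodium phosphate cotransporter, GLO1, a glyoxalase, RAB20 and the creatine kinase gene CKB. Their Euclidean distances were 0.26 to 0.64 among 11143 genes compared. B4GAT1, the nearest, had normalized counts of 540 and 521 in NC, 131 and 119 with siMEX3A_1, and 86.0 and 77.1 with siMEX3A_2. SLC34A2, the next, went from 6690 and 6577 to 1670 and 1669, and to 1103 and 1085 (log2 fold changes -1.99 and -2.60). CELSR2 lies on chromosome 1 between the protein-coding genes SARS and PSRC1. PSRC1, a microtubule-associated mitotic gene on the opposite strand, fell by 1.63 with siMEX3A_1 (SE 0.09, edgeR adjusted p = 3.70e-07) and by 0.53 with siMEX3A_2 (SE 0.08, adjusted p = 0.000432). The seryl-tRNA synthetase gene SARS rose by 0.67 (SE 0.06, adjusted p = 9.81e-06) and 0.50 (SE 0.06, adjusted p = 8.63e-05).

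The wider pathway was described by 10 lists of 83 genes, of which 71 were tested. With siMEX3A_1, 22 rose and 19 fell, 57.7% called against 52.9% of all genes. With siMEX3A_2, 23 rose and 22 fell, 63.4% against 50.9%, and between the siRNAs 24 were higher and 21 lower with siMEX3A_1, 63.4% against 51.6%. The median log2 fold changes were 0.03, 0.08 and -0.05. Rises and falls were thus near equal in number in each comparison.

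Among non-canonical Wnt ligands, 5 of 8 were tested, with 2 higher and 2 lower with siMEX3A_1 and 2 higher and 0 lower with siMEX3A_2. The shares called were 80% and 40%, against 52.9% and 50.9% of all genes. WNT5B rose with both (0.32 and 0.37, edgeR adjusted p = 0.00789 and 0.00386), the first of these not without NC replicate 1 (0.26, adjusted p = 0.0648). WNT5A, the ligand most tied to planar polarity, fell with siMEX3A_1 (-0.74, SE 0.15, adjusted p = 0.00268) and did not pass with siMEX3A_2 (-0.27, adjusted p = 0.165). In the authors' deposited table the adjusted p of WNT5A with siMEX3A_1 was 0.0693.

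Of the 4 co-receptors, 2 fell and 0 rose with siMEX3A_1, and 2 fell and 1 rose with siMEX3A_2. Calls thus made up 50% and 75% of this list, against 52.9% and 50.9% of all genes. PTK7, a pseudokinase receptor of planar polarity, had normalized counts of 1520 and 1615 in NC, 760 and 707 with siMEX3A_1, and 1150 and 1016 with siMEX3A_2. It fell with both, by 1.10 (SE 0.08, edgeR adjusted p = 2.57e-06) and 0.53 (SE 0.08, adjusted p = 0.000327). ROR1, a receptor for WNT5A, fell with siMEX3A_1 (-0.97, SE 0.13, adjusted p = 0.000176) and rose with siMEX3A_2 (0.55, SE 0.12, adjusted p = 0.00426), a direct difference of -1.52 (SE 0.13, adjusted p = 8.24e-06).

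Of 6 other Frizzled receptors tested, 2 rose and 3 fell with siMEX3A_1, and 0 rose and 5 fell with siMEX3A_2. That is 83.3% called with each, against 52.9% and 50.9% of all genes. FZD7 rose with siMEX3A_1 (1.22, SE 0.07, edgeR adjusted p = 4.17e-07) and did not pass with siMEX3A_2 (-0.12, adjusted p = 0.18), a direct difference of 1.34 (SE 0.07, adjusted p = 2.83e-07). FZD4 fell with siMEX3A_2 (-1.90, SE 0.15, adjusted p = 6.67e-06). Its fall with siMEX3A_1 was at the threshold (-0.34, adjusted p = 0.0497) and was lost in 12 of 14 alternatives, with an adjusted p from 0.0239 to 0.347 over them. FZD1 fell with both (-0.87 and -0.33), the second not in the authors' deposited table (adjusted p = 0.0513).

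Dishevelled carries the Frizzled signal into the cell. Of the 7 genes tested in that list, 3 rose and 0 fell with each siRNA, 42.9% called against 52.9% and 50.9% of all genes. DVL1 rose with siMEX3A_1 (1.16, SE 0.06, edgeR adjusted p = 4.28e-07), and with siMEX3A_2 by 0.21 (adjusted p = 0.0217), a call lost in 5 of 14 alternatives, where the adjusted p ran up to 0.169. DVL3 rose with both (0.52 and 0.58, adjusted p = 5.67e-05 and 3.51e-05). The calls of DVL2 with siMEX3A_1 (0.27) and ANKRD6 with siMEX3A_2 (0.55) were lost in 4 and 7 of 14 alternatives, with an adjusted p of up to 0.110 and 0.164. The planar polarity effectors at cilia were INTU, FUZ, WDPCP, C5orf42 and RSG1. Of these 5, edgeR called 0 with either siRNA against NC, beside the same shares of all genes. At an unadjusted p under 0.05 0 passed with siMEX3A_1 and 1 with siMEX3A_2, and DESeq2 called 0 with either.

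In the cytoskeletal arm of 11 genes, 3 rose and 3 fell with siMEX3A_1, and 6 rose and 4 fell with siMEX3A_2. Together 54.5% and 90.9% were called, against 52.9% and 50.9% of all genes. DAAM1, the formin that links Dishevelled to RHOA, had normalized counts of 220 and 208 in NC, 413 and 491 with siMEX3A_1, and 587 and 594 with siMEX3A_2. It rose by 1.08 (SE 0.10, edgeR adjusted p = 1.40e-05) and 1.46 (SE 0.10, adjusted p = 2.53e-06). The kinase gene ROCK1 and the GTPase gene RHOB fell with siMEX3A_2 (-1.12 and -1.12, adjusted p = 2.90e-06 and 3.28e-07). With siMEX3A_1, ROCK1 and RHOB were at 0.17 and 0.03 (adjusted p = 0.0767 and 0.651), and ROCK1 passed without siMEX3A_1 replicate 1 (0.26, adjusted p = 0.0144).

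SCRIB works with the LLGL and DLG proteins at the basolateral side. Of 8 genes tested in that list, 1 rose and 3 fell with siMEX3A_1, and 3 rose and 3 fell with siMEX3A_2. The shares called were 50% and 75%, against 52.9% and 50.9% of all genes. LLGL2 had normalized counts of 453 and 468 in NC, 79.9 and 77.5 with siMEX3A_1, and 202 and 227 with siMEX3A_2. It fell by 2.55 (SE 0.11, edgeR adjusted p = 8.86e-08) and 1.10 (SE 0.09, adjusted p = 1.09e-05). LLGL1 fell by 1.22 and 0.99 (adjusted p = 2.73e-06 and 1.38e-05), and DLG1 rose by 0.53 and 0.69 (adjusted p = 0.000133 and 2.81e-05). ERBB2IP was called lower with siMEX3A_1 (-0.23, adjusted p = 0.0333), and 8 of 14 alternatives lost that call, with an adjusted p of up to 0.277. With siMEX3A_2 ERBB2IP rose (0.61, SE 0.08, adjusted p = 0.000135), a call kept in all 14. In the siMEX3A_1 libraries SCRIB was higher and both LLGL genes were lower than in NC.

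Of the 10 tested genes of the apical Par and Crumbs complexes, 4 rose and 3 fell with siMEX3A_1, and 2 rose and 4 fell with siMEX3A_2. Calls thus made up 70% and 60%, against 52.9% and 50.9% of all genes. PRKCI, the atypical protein kinase C of the Par complex, fell by 1.82 (SE 0.07, edgeR adjusted p = 4.98e-08) and 0.48 (SE 0.07, adjusted p = 0.000231). The fall of PARD6B with siMEX3A_1 (-0.39, adjusted p = 0.0457) was lost in 9 of 14 alternatives, with an adjusted p of up to 0.320. With siMEX3A_2 PARD6B fell further (-1.27, SE 0.15, adjusted p = 0.000105), a call kept in all 14. Among Fat and Dachsous cadherins and their kinase, 2 of 5 rose with siMEX3A_1 and 2 of 5 fell with siMEX3A_2. That is 40% called with each, against the same shares of all genes. FJX1, the Golgi kinase of this group, moved in opposite directions (0.51 and -0.61, adjusted p = 0.000153 and 6.53e-05), and FAT1 fell with siMEX3A_2 (-1.41, SE 0.13, adjusted p = 1.94e-05). Of the 10 genes for sorting and turnover of planar polarity proteins, 5 rose and 3 fell with siMEX3A_1, and 6 rose and 2 fell with siMEX3A_2. Here 80% were called with each, against the same shares of all genes. SAR1B, of the coat that carries proteins out of the endoplasmic reticulum, fell with siMEX3A_1 by 0.19 (adjusted p = 0.0473), a call lost in 12 of 14 alternatives, with an adjusted p from 0.0150 to 0.289. With siMEX3A_2 SAR1B fell further (-0.91, SE 0.08, adjusted p = 8.82e-06), a call kept in all 14. SMURF2, a ubiquitin ligase that acts on PRICKLE1, rose by 0.63 and 0.31 (adjusted p = 2.21e-05 and 0.00258). KLHL12, an adaptor of Dishevelled turnover, rose by 0.61 and 0.35 (adjusted p = 2.71e-05 and 0.00135).

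**Figure D4:**
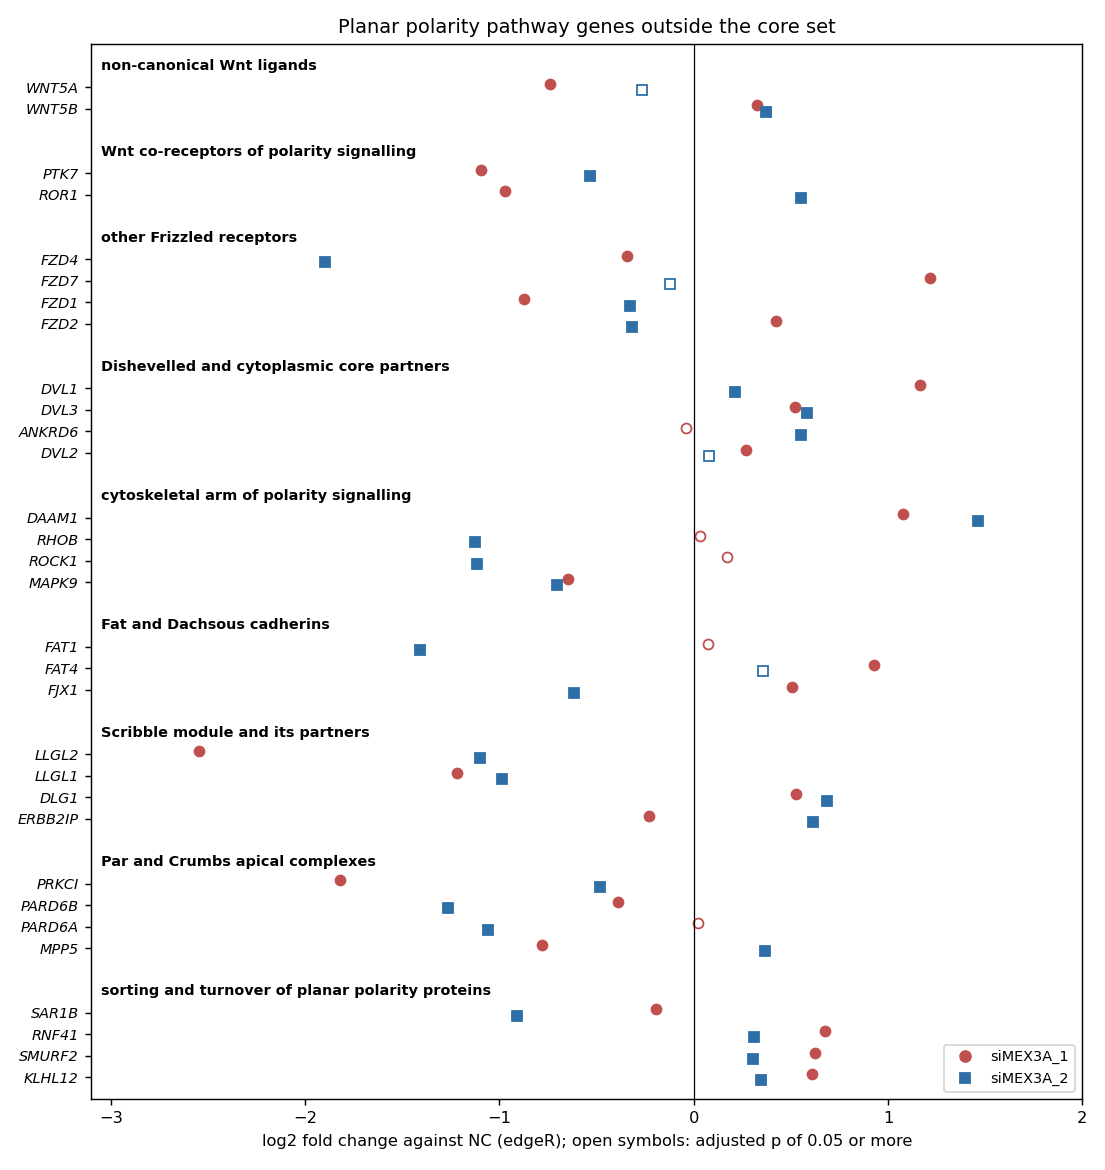
Log2 fold changes against NC from edgeR (horizontal axis) of up to 4 genes from each pathway list, for siMEX3A_1 (circles) and siMEX3A_2 (squares). Open symbols mark an adjusted p of 0.05 or more. LLGL2 lies farthest left with siMEX3A_1 at -2.55, and DAAM1 is above 1 with both.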

How the data were processed

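RNA of 6 ACHN libraries was sequenced as single-end mRNA libraries, per the labels' protocols. Per the submitters' processing notes, RSEM and STAR were used, with GRCh37 and hg19 as builds. Versions and roles are not given in the sources used here. Both deposited tables hold the authors' expected counts per gene and library, not normalized, per the file headers. The other columns are the authors' own comparison, deposited under names that DESeq2 writes. Of these, the mean and the test statistic are scores, the fold change and its error are log2 values, and p-values and adjusted p-values are given per gene by the authors.

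Expected counts were rounded and tested by quasi-likelihood in edgeR 4.0.16 under R 4.3.3 with limma 3.58.1, using TMM scaling, edgeR's default filter against low counts, all 6 libraries in 1 fit and Benjamini-Hochberg adjustment over 18583 genes. A gene was called at an adjusted p under 0.05. The standard error is the log2 fold change over the square root of F. Normalized counts are relative to the mean library. The biological coefficient of variation was 6.26%. Rows sharing a name (4481) were kept apart, and 27 rows carried date names. Exon lengths and overlaps came from GENCODE 29 (GRCh38), not the authors' build.

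The members and lists were chosen with earlier results of these data known. Another marker of the leukocyte list is not reported here. Genes named were all members, MEX3A, up to 4 called genes per list with a mean of at least 100 normalized counts by largest fold change against NC, the 5 genes nearest to CELSR2 and its genomic neighbours. The labels leave unsaid whether replicates were separate cultures, and p-values then measure a spread between libraries that may be technical. Pairs within a group differed by more than sampling noise (chi-square over degrees of freedom 2.39 to 5.62). Alternatives were RLE and library size scaling, DESeq2 1.42.0, other filters, fewer libraries, a replicate block and the authors' comparison. On simulated counts for siMEX3A_1 against NC (18263 genes tested), edgeR recovered 100% of 100 genes with a log2 change of 1 and 73% of 100 with 0.5, with 4 unchanged genes called. For siMEX3A_2 against NC (18309 genes tested) it recovered 96% and 80%, with 8 unchanged genes called. Between the siRNAs (18252 genes tested) it recovered 100% and 79%, with 4 unchanged genes called.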

Additional observations from a re-analysis of the deposited data

Results flagged for a closer look

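CELSR1 and VANGL1 were flagged because they were called in opposite directions against NC and also passed the direct edgeR test between the siRNAs. The direct difference largely follows from this choice and adds no separate support. Of all genes tested, 7.67% were called in opposite directions. The CELSR1 rise with siMEX3A_1 rested on NC replicate 2 (log2 fold change 0.17 without it). The log2 difference of siMEX3A_1 against siMEX3A_2 was 1.43 for CELSR1 (SE 0.08, adjusted p = 3.64e-07), with both siMEX3A_1 libraries above both siMEX3A_2 libraries. For VANGL1 it was -1.08 (SE 0.06, adjusted p = 8.16e-07), with both siMEX3A_1 libraries below both siMEX3A_2 libraries. Over 13 alternatives these differences ran from 1.37 to 1.49 for CELSR1 and from -1.13 to -1.06 for VANGL1.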

How the results depend on the processing

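The number of members called ranged from 9 to 10 with siMEX3A_1 against NC and from 7 to 8 with siMEX3A_2 against NC over 14 alternatives each, and from 7 to 8 between the siRNAs over 13. The 71 other pathway genes tested gave 31 to 40, 37 to 49 and 32 to 46 calls. Of 407 values of members under an alternative, 400 kept their direction where called, and their side of the threshold where tested, 7 lost a call and 0 reversed. The lost calls were those of FZD3, CELSR1 and VANGL2 given above. FZD3 was not tested with a minimum mean of 50 counts. Same-numbered libraries did not deviate together (correlations of -0.11, 0.03 and -0.01). With 2 libraries a group, this cannot show whether same-numbered libraries shared a culture or day. With the replicate block 10, 8 and 8 members and 35, 45 and 41 other pathway genes were called. Library size as the only scaling moved the median of all genes with siMEX3A_1 to -0.07. With 2 libraries a group, no exact permutation test over libraries could pass the threshold.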

Other observations

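CELSR genes belong both to the cadherins and to the adhesion G protein-coupled receptors. Of 9 cadherins tested, 4 rose and 2 fell with siMEX3A_1, and 2 rose and 4 fell with siMEX3A_2, 66.7% called in each, against 52.9% and 50.9% of all genes. CDH1 (E-cadherin) had normalized counts of 784 and 693 in NC, 37.4 and 62.2 with siMEX3A_1, and 49.0 and 71.1 with siMEX3A_2. The kidney cadherin gene CDH16 fell by 2.55 (SE 0.14, edgeR adjusted p = 4.75e-07) and 1.49 (SE 0.13, adjusted p = 1.11e-05), while CDH13, a cadherin held by a lipid anchor, rose by 0.56 and 0.89 (adjusted p = 4.49e-05 and 3.12e-06).

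Of 13 other adhesion G protein-coupled receptors tested, 2 rose and 7 fell with siMEX3A_1, 69.2% called against 52.9% of all genes. With siMEX3A_2, 0 rose and 5 fell, 38.5% called against 50.9% of all genes. ADGRB2 fell by 1.14 and 1.46 (edgeR adjusted p = 1.27e-05 and 4.47e-06) and ADGRA3, which is known to bind planar polarity proteins, by 0.79 and 0.92 (adjusted p = 5.98e-06 and 3.72e-06). The latrophilin gene ADGRL1 fell by 1.15 with siMEX3A_2 (SE 0.09, adjusted p = 5.46e-06). With siMEX3A_1 it was at -0.30 (adjusted p = 0.0115), a call that ended without NC replicate 2, with DESeq2 and in the authors' deposited table, where the adjusted p ran up to 0.213.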
